A study of Macaca mulatta with 24 samples.

Results

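The transcripts described here encode synaptic vesicle proteins and the machinery that fuses vesicles with membranes, measured across 4 areas of the frontal cortex of rhesus monkeys. Members were the probe sets of the array whose single gene symbol begins with SYT, STX, SNAP (each followed by a digit), STXBP, VAMP, SV2, CPLX or RAB3, or is a synapsin (SYN1 to SYN3). The rule found 92 probe sets of 54 genes, out of 52766 probe sets that are not controls, of which 24956 carried 1 symbol and named 14132 genes. Of these 92, 70 probe sets of 44 genes reached the median intensity of the array and were tested. The other 22 probe sets, and with them 10 genes without any tested probe set (RAB38, RAB39A, SNAP91, STX2, STX11, SYT9, SYT10, SYT14, SYT16 and VAMP8), were too dim for the test. By family the members were 11 synaptotagmins, 11 syntaxins, 3 syntaxin-binding proteins, 6 VAMPs and 3 SV2 proteins. They also held 1 complexin, 6 genes of RAB3 and its regulators, and 1 synapsin, SYN2. The 2 genes with SNAP symbols, SNAP47 and SNAP91, were grouped by their letters. A further 10 genes, RAB30 to RAB39A, entered by the letters of their names alone, since they are Rab GTPases of other transport steps. SYN1, SYN3, SNAP25 and CPLX1 were not analysed here.

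The study sampled primary motor cortex (M1, its forelimb region), dorsal premotor cortex (PMd), ventral premotor cortex (PMv) and prefrontal area 46 (A46), located by the sulci, in both hemispheres of 3 adolescent rhesus monkeys. The animals, 2 males and 1 female aged 2.6 to 2.7 years, were bred in group cages and had no experimental treatment. Each of the 24 dissected pieces was hybridised to 1 Affymetrix array, so each area had 6 arrays from 3 animals, and the animal was the replicate. Array medians were 47.9 to 51.6 on the linear intensity scale, no 2 arrays were identical, and correlations between arrays lay between 0.977 and 0.997. Values below are log2 intensities. Means are over the 3 animals with both hemispheres averaged first, and their errors are SDs between animals.

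A synaptic vesicle fuses with the terminal membrane when the vesicle SNARE (VAMP, or synaptobrevin) zips together with a syntaxin and SNAP-25, the plasma membrane SNAREs. Complexin guides that assembly, synaptotagmin triggers it when calcium enters, synapsin tethers the reserve of vesicles, RAB3 marks vesicles for docking, and SV2 is a glycoprotein of the vesicle membrane needed for normal release. The same families also hold members that serve endosomes, the Golgi apparatus and lysosomes in every cell. In cortex, isoforms of 1 family are used by different neuron types. The tissue pieces hold all cell types, so fewer cells of a type and less RNA per cell cannot be told apart in any value below.

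The comparison of primary motor with prefrontal cortex asked which of these transcripts differ between the ends of the sampled range. In M1 relative to A46, 7 of the 44 tested genes were higher and 4 were lower. SV2C, SYT6 and VAMP1 were the members highest in M1 by fold, and the plasma membrane syntaxin STX1A was the member lowest in M1. By probe set, 16 of 70 members passed an adjusted p of 0.05 (10 higher and 6 lower, 22.9%), where 12.9% of all 26383 tested probe sets did (7.49% higher and 5.36% lower). By gene the shares were 25% of the members and 14.7% of all 10043 genes tested. Without RAB30 to RAB39A the count was 14 of 55 probe sets. The median log2 difference over the 44 genes was 0.02, against -0.0012 over all tested genes. The median size of the difference without its sign was 0.11 over the 44 genes and 0.10 over all. Called members thus lay on both sides of zero.

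These counts depended on the animals and on how they entered the model. Leaving out animal 1, 2 or 3 gave 7, 4 and 25 called probe sets, where 6.25%, 1.53% and 20.5% of all probe sets were called. A fit without the animal as a block gave 4, against 4% of all. Without animal 3 the split was 12 higher and 13 lower, and after quantile normalization it was 10 higher and 11 lower of 21 called. The share of all probe sets is not given for that normalization. SV2C, SYT6, VAMP1 and STX1A were the 4 members called in the full data and also without each animal in turn. The plot of all 44 genes shows the differences by family.

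**Figure D1:**
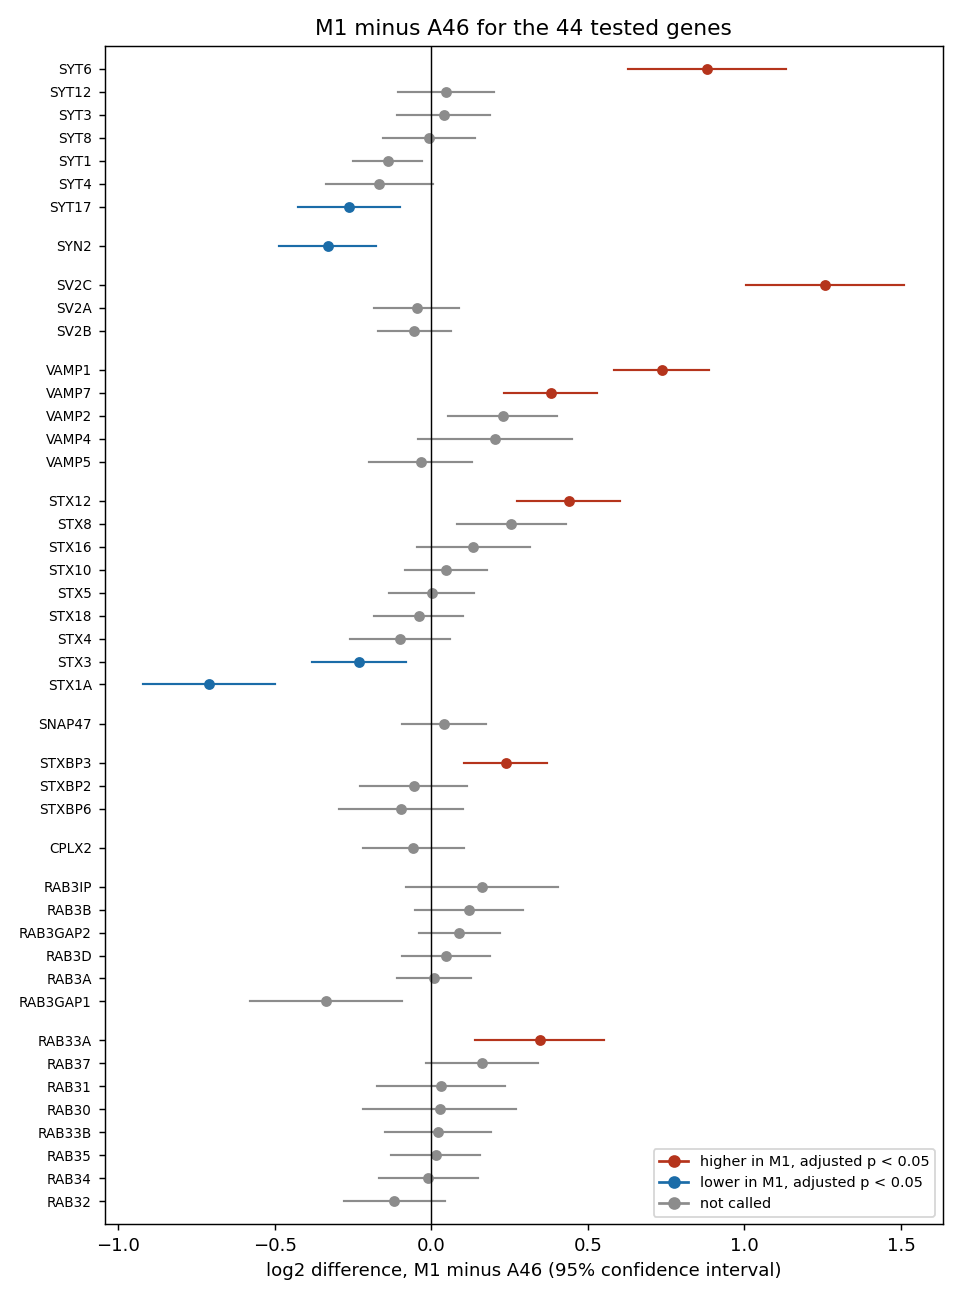
Log2 difference, M1 minus A46, for the 44 tested genes, each by its brightest probe set, grouped by family. Points are limma estimates over 3 animals and bars are 95% confidence intervals not adjusted for multiple tests; the 7 genes called higher in M1 are red, the 4 called lower are blue and the 33 others grey.

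Among the vesicle membrane proteins, the 3 SV2 genes parted. SV2C, the SV2 isoform with the most restricted distribution in rodent brain and a receptor for botulinum neurotoxin A, was 2.39-fold higher in M1 than in A46. Its 6 arrays of M1 read 7.52, 8.03 and 8.29 (lowest, median and highest). In PMd they read 7.25, 7.41 and 7.78, in PMv 6.86, 6.99 and 7.09, and in A46 6.19, 6.80 and 7.01. No M1 array overlapped an A46 array, and only the highest PMd array, from animal 1, reached into the M1 range. The log2 difference of 1.26 (SE 0.12, limma adjusted p = 3.33e-05) was 1.26 in each of the 3 animals. It was still called without any 1 animal (adjusted p between 1.07e-05 and 0.00187) and without the animal block (adjusted p = 0.00156). Area accounted for 86.9% of the variation in SV2C over the 12 animal-by-area means.

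The other 2 SV2 genes did not pass the test. SV2A, the isoform found in nearly all neurons and the binding site of the drug levetiracetam, averaged 11.00 ± 0.06 in M1 and 11.04 ± 0.05 in A46 (SD, n = 3 each). The 95% interval of its difference ran from -0.18 to 0.09 (adjusted p = 0.71). SV2B, which prevails in glutamatergic neurons of the forebrain, averaged 11.49 ± 0.01 in M1 and 11.54 ± 0.04 in A46, with an interval from -0.17 to 0.06 (adjusted p = 0.60). Within each animal the M1 minus A46 difference of SV2C exceeded that of SV2A by 1.22 to 1.42 and that of SV2B by 1.27 to 1.37. These pairs of isoforms were chosen after their values were seen. In all 3 animals the excess had the same sign, which for 3 animals gives an exact two-sided sign-flip p of 0.25, the smallest possible.

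Of the vesicle SNAREs, VAMP1 differed and VAMP2 did not pass. VAMP1 (synaptobrevin 1) is the isoform that prevails in spinal cord and brainstem motor neurons in rodents, and VAMP2 is the main isoform of the forebrain. The VAMP1 arrays read 8.90, 8.99 and 9.37 in M1 (lowest, median and highest). They read 8.53, 8.76 and 8.97 in PMd, 8.39, 8.56 and 8.70 in PMv, and 8.26, 8.33 and 8.45 in A46. All 6 M1 arrays lay above all PMv and A46 arrays, all 6 PMd arrays lay above the A46 arrays, and M1 overlapped PMd. The M1 minus A46 difference was 0.74 (SE 0.07, 1.67-fold, limma adjusted p = 3.73e-05), with 0.92, 0.66 and 0.63 in animals 1, 2 and 3. It was called without each animal in turn (highest adjusted p = 0.00819) and without the animal block (adjusted p = 0.00585).

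VAMP2 averaged 8.46 ± 0.13 in M1 and 8.23 ± 0.19 in A46. Its log2 difference of 0.23 was positive in 3 of 3 animals (0.24, 0.30 and 0.15) but missed the threshold (adjusted p = 0.086). The A46 arrays of animal 2 were 8.53 on the left and 7.76 on the right, the widest gap between hemispheres for this gene, and 68% of its variation lay between animals. The excess of VAMP1 over VAMP2 in M1 minus A46 was 0.37 to 0.68 per animal. This pair too was chosen after its values were seen. Its exact two-sided sign-flip p of 0.25 is the smallest possible for 3 animals, so that test cannot decide. VAMP7, which works at late endosomes and lysosomes and in neurite growth, was 1.30-fold higher in M1 (9.28 ± 0.18 against 8.90 ± 0.11 in A46, log2 difference 0.38, limma adjusted p = 0.00279). Its call was lost without animal 2 (adjusted p = 0.21) and without the animal block (0.0725). VAMP4 and VAMP5, of the Golgi apparatus and the cell surface, differed by 0.20 and -0.03 and were not called.

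**Figure D2:**
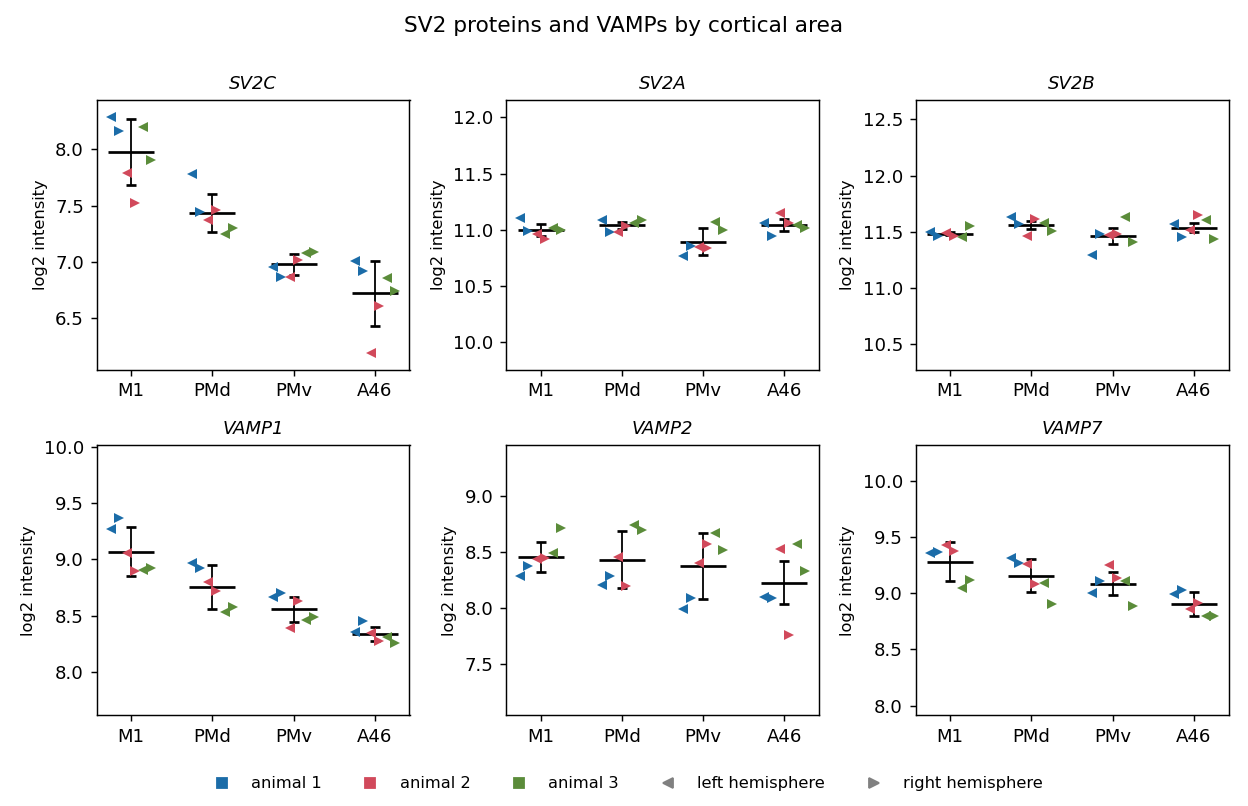
Log2 intensity of the 3 SV2 genes (top) and 3 VAMP genes (bottom) on the 24 arrays, by area from M1 to A46. Colours are animals, left- and right-pointing triangles are hemispheres, and black bars are the mean ± SD over 3 animals; every panel spans the same log2 range, and SV2C averages 7.98 in M1 and 6.72 in A46, while SV2A averages 11.00 and 11.04.

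Of the SNAREs of the presynaptic plasma membrane, STX1A was tested, and it ran the other way. This syntaxin was 1.64-fold lower in M1 than in A46. Its arrays read 8.51, 8.69 and 9.21 in M1, 8.66, 8.89 and 9.48 in PMd, 8.66, 8.75 and 9.45 in PMv, and 9.28, 9.45 and 9.75 in A46 (lowest, median and highest). Every M1 array lay below every A46 array, whereas PMd and PMv overlapped A46, through the arrays of animal 3. The log2 difference was -0.71 (SE 0.10, limma adjusted p = 0.000438), and it was -0.93, -0.73 and -0.47 in animals 1, 2 and 3. It was called without each animal in turn (highest adjusted p = 0.045), but not when the animal was left out of the model (adjusted p = 0.0805). Animal 3 read higher than the others in all 3 motor areas.

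Of the syntaxins of other membranes, STX12 was higher and STX3 lower in M1. STX12 (also called syntaxin 13) serves recycling endosomes and averaged 7.54 ± 0.02 in M1, 7.33 ± 0.11 in PMd, 7.17 ± 0.12 in PMv and 7.10 ± 0.03 in A46. Its difference of 0.44 was nearly the same in the 3 animals (0.44, 0.43 and 0.45, limma adjusted p = 0.00215), and its second probe set gave 0.47 (adjusted p = 0.0146). The first call was lost without animal 2 (adjusted p = 0.104), and the second without animal 1 (0.0881), without animal 2 (0.121) and without the animal block (0.171). STX3, found at apical membranes and at ribbon synapses of the retina, was 1.17-fold lower (-0.23, adjusted p = 0.0452), and lost its call without animal 1 (0.279), without animal 2 (0.401) and without the animal block (0.255). STX8, an endosomal syntaxin, differed by 0.26 and missed the threshold (adjusted p = 0.0553). STX4, STX5, STX10, STX16 and STX18 lay between -0.10 and 0.13 and were not called.

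STXBP3 (Munc18-3), the partner of syntaxin 4 at the plasma membrane, was called higher in M1 by all 3 of its probe sets, with differences of 0.24, 0.34 and 0.44 (limma adjusted p = 0.0217, 0.0217 and 0.0283). The brightest averaged 10.39 ± 0.25 in M1 and 10.15 ± 0.14 in A46. Its call was lost without animal 1 (adjusted p = 0.222), without animal 2 (0.362) and without the animal block (0.475). In the same order, the second probe set stood at 0.194, 0.409 and 0.307, and the third at 0.0572, 0.413 and 0.0789. The first and second share a target identifier, so they are not separate support. STXBP2 and STXBP6 (amisyn) differed by -0.06 and -0.10, and SNAP47 by 0.04, and none was called.

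SYN2, the synapsin that tethers vesicles to each other and to actin, was lower in M1. It averaged 9.05 ± 0.23 in M1, 9.31 ± 0.20 in PMd, 9.35 ± 0.20 in PMv and 9.38 ± 0.07 in A46. The difference of -0.33 (1.26-fold lower, limma adjusted p = 0.00889) was -0.30, -0.50 and -0.19 in animals 1, 2 and 3. A second probe set gave -0.53 (adjusted p = 0.0148) and the third, -0.21, was not called. Without animal 2 the first was no longer called (adjusted p = 0.368), nor was it without the animal block (0.241). The second lost its call without animal 1 (0.0928), without animal 2 (0.358) and without the animal block (0.238).

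Among the synaptotagmins, SYT6 was higher and SYT17 lower in M1 while SYT1 did not pass. SYT6 is known from mouse and human sperm for its part in the acrosome reaction, and in mouse neocortex its transcript marks layer 6 neurons. Its arrays read 7.45, 7.49 and 7.81 in M1, 6.66, 6.91 and 7.63 in PMd, 6.78, 7.08 and 7.21 in PMv, and 6.47, 6.69 and 6.90 in A46 (lowest, median and highest). M1 did not overlap PMv or A46, and only the left PMd piece of animal 1 (7.63) reached into its range. The difference of 0.88 (SE 0.12, 1.84-fold, limma adjusted p = 0.000323) was 0.69, 0.95 and 0.99 in the 3 animals. It was called without each animal in turn (highest adjusted p = 0.0245) and without the animal block (adjusted p = 0.00866).

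SYT17, a synaptotagmin-like protein of membrane traffic, averaged 8.54 ± 0.20 in M1, 8.83 ± 0.24 in PMd, 9.06 ± 0.26 in PMv and 8.80 ± 0.14 in A46. M1 was the lowest and PMv the highest area. The M1 minus A46 difference was -0.26 (limma adjusted p = 0.0376). That call was lost without animal 1 (adjusted p = 0.0968), without animal 2 (0.66), without the animal block (0.456), and when its 2 probe sets were averaged (0.077).

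SYT1, the calcium sensor of fast synchronous release, did not pass. Its probe set with the highest mean read 12.59 ± 0.11 in M1 and 12.73 ± 0.05 in A46, a difference of -0.14 in the same direction in 3 of 3 animals (adjusted p = 0.095). All 4 of its tested probe sets were lower in M1, between -0.09 and -0.19, and none was called. It was called without animal 3 (adjusted p = 0.0122). SYT4, which lacks normal calcium binding and acts on dense-core vesicles, gave -0.17 (adjusted p = 0.21), and SYT3, SYT8 and SYT12 lay between -0.01 and 0.05.

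**Figure D3:**
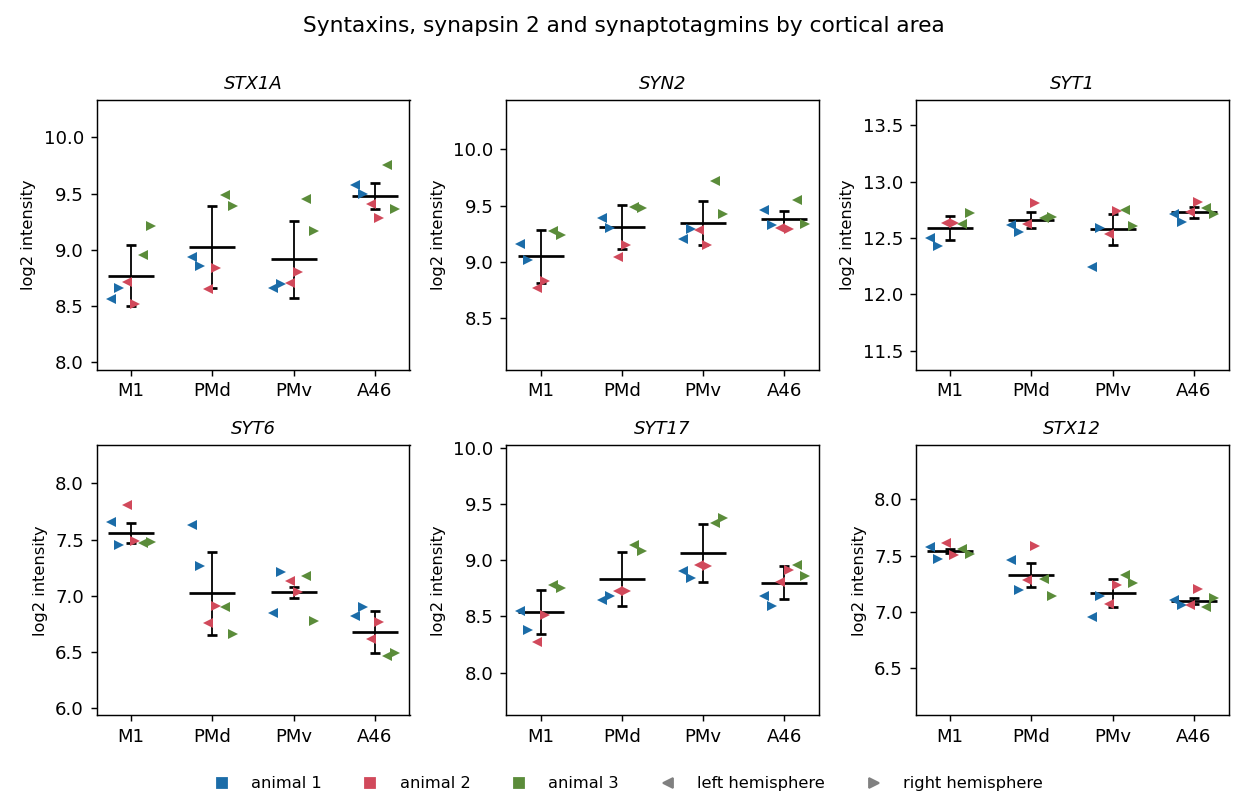
Log2 intensity of STX1A, SYN2, SYT1, SYT6, SYT17 and STX12 on the 24 arrays, by area from M1 to A46. Colours are animals, triangles point to the hemisphere and black bars are the mean ± SD over 3 animals; STX1A is lowest in M1 (8.77) and highest in A46 (9.48), and SYT6 and STX12 run the other way.

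CPLX2 (complexin 2), the fusion clamp and activator of forebrain terminals, averaged 10.71 ± 0.19 in M1 and 10.77 ± 0.03 in A46. RAB3A, the main vesicle GTPase, averaged 11.27 ± 0.09 in M1 and 11.26 ± 0.01 in A46. Neither was called, with 95% intervals of the difference from -0.22 to 0.10 for CPLX2 and from -0.11 to 0.13 for RAB3A. RAB3GAP1, the catalytic subunit of the enzyme that switches RAB3 off, was -0.59, -0.42 and 0.00 in animals 1, 2 and 3 and missed the threshold (-0.34, adjusted p = 0.0698). By their brightest probe sets, RAB3B, RAB3D, RAB3GAP2 and RAB3IP lay between 0.05 and 0.16. Tested probe sets of RAB3B (1 positive, 1 negative) and RAB3GAP2 (2 positive, 2 negative) lay on both sides of zero, and none was called. Of the 8 tested genes from RAB30 to RAB39A, RAB33A alone was called (0.35, limma adjusted p = 0.0303). It was 0.52 and 0.50 in animals 1 and 2 but 0.02 in animal 3, and its call was lost without animal 1 (0.243), without animal 2 (0.487) and without the animal block (0.131). For RAB35, an endocytic recycling GTPase, 1 of 5 probe sets was lower (-0.28, adjusted p = 0.0258), while its brightest gave 0.01, and that call was lost without animal 1 (0.197), without animal 2 (0.407) and without the animal block (0.278).

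Sorted by function rather than by name, both directions appeared in each group, where 14.7% of all tested genes were called. Of 23 genes listed as the core of presynaptic release, 13 were on the array and 12 were tested. SV2C and VAMP1 were higher, STX1A and SYN2 were lower, 8 were not called, and the median difference was -0.02. Of 23 SNAREs and SNARE-binding proteins of general traffic, 14 were tested. STX12, VAMP7 and STXBP3 were higher, STX3 was lower, 10 were not called, and the median was 0.04. Of the 5 tested synaptotagmins outside the core, SYT6 was higher and SYT17 lower, with a median of -0.01. The same median over all tested probe sets was -0.01.

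Of the 15 genes with at least 2 tested probe sets, 11 had all of them on 1 side of zero in M1 minus A46, 4 had them on both sides, and 0 were called in both directions. The plot of genes with several probe sets shows STX12 and STXBP3 called by every probe set, SYN2 by 2 of 3 and RAB35 by 1 of 5. The dimmer STX12 probe set lay near the filter, and the brighter STXBP3 probe sets share a target identifier, so these are not separate support.

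**Figure D4:**
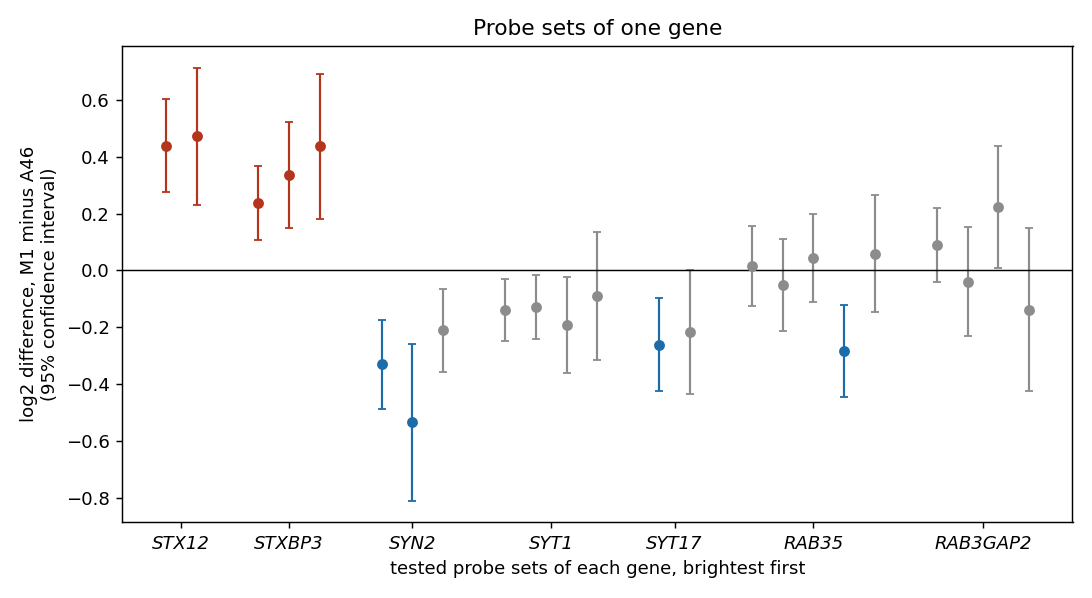
Log2 difference, M1 minus A46, for each tested probe set of 7 genes, brightest first within a gene. Points are limma estimates, bars are unadjusted 95% confidence intervals, red is called higher in M1, blue called lower and grey not called; the 4 SYT1 probe sets all lie below zero without a call.

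The mean of the 3 motor areas against A46 asked which of these differences extend to premotor cortex. This comparison shares its A46 arrays with the one above, so its values are given beside it and are not a second test. Called were 13 of 70 member probe sets (9 higher and 4 lower, 18.6%), against 9.96% of all tested probe sets (5.26% higher and 4.7% lower). By gene, 7 were higher and 1, STX1A, was lower. SV2C gave 0.74 (limma adjusted p = 0.000492), SYT6 0.52 (0.00465) and VAMP1 0.46 (0.000417). VAMP7 gave 0.27 (0.00944), STX12 0.24 (0.0263), STXBP3 0.19 (0.0269) and RAB33A 0.28 (0.0407), the last with only 2 of 3 animals positive. STX1A gave -0.58 (adjusted p = 0.000808), with -0.81, -0.64 and -0.28 in animals 1, 2 and 3. Probe sets that do not stand for their gene added SYN2 (-0.43), SYT1 (-0.22) and RAB3GAP1 (-0.32) among the lower calls.

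Most of these motor area calls were lost without animal 2, when 0.682% of all probe sets were called. In that fit, SV2C alone was called (adjusted p = 0.0276), and VAMP1 (0.0528), STX1A (0.0855), SYT6 (0.114), VAMP7 (0.379), STX12 (0.401), STXBP3 (0.445) and RAB33A (0.637) were not. Leaving out animal 1 gave 5 called probe sets (3.26% of all), in which STX12 (0.119), STXBP3 (0.23) and RAB33A (0.277) were lost, and leaving out animal 3 gave 24 (24.5% of all). Without the animal block 2 were called (1.82% of all), SV2C (0.0193) and VAMP1 (0.0392). After quantile normalization, for which the share of all is not given, the split was 9 higher and 7 lower. The arrays of the 3 motor areas did not all separate from A46 for any of the 70 member probe sets, which held for 0.553% of all, whereas 10 of 70 separated between M1 and A46, against 8.68% of all.

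Within motor cortex, M1 was compared with the mean of PMd and PMv, which reuses the M1 arrays. Called were 7 of 70 member probe sets (4 higher and 3 lower, 10%), against 2.16% of all (1.52% higher and 0.637% lower). SV2C was higher in M1 by 0.77 (limma adjusted p = 0.0035), SYT6 by 0.53 (0.0183), VAMP1 by 0.41 (0.00495) and STX12 by 0.29 (0.0386). SYT17 was lower in M1 by -0.41 (adjusted p = 0.00886) and SYN2 by -0.28 (0.0364), each in 3 of 3 animals. STX1A (-0.20) did not pass in this comparison, so its lower level was called only against A46. Without animal 2, when 0.0948% of all probe sets were called, SV2C alone was called (0.0226), while VAMP1 (0.19), SYT17 (0.265), SYT6 (0.512), STX12 (0.638) and SYN2 (0.877) were not. Without animal 1 (0.754% of all called), STX12 (0.253) and SYN2 (0.107) were lost, and without the animal block 0 were called (0.0417% of all), with SV2C closest (0.072). Averaging the probe sets of a gene ended the calls of STX12 (0.0987) and SYN2 (0.115).

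Single pairs of areas gave 9 further calls. PMd against A46 gave 3 (1.95% of all probe sets were called, 1.39% higher and 0.561% lower), SV2C (0.72) and VAMP1 (0.42) higher and STX1A (-0.45) lower in PMd. PMv against A46 gave 1 (1.23% of all, 0.629% higher and 0.599% lower), STX1A, lower in PMv by -0.56. M1 against PMv gave 5 (1.87% of all, 1.41% higher and 0.466% lower): SV2C (1.00), SYT6 (0.53), VAMP1 (0.51) and STX12 (0.37) higher and SYT17 (-0.52) lower in M1. M1 against PMd gave 0 (0.33% of all, 0.171% higher and 0.159% lower) and PMd against PMv gave 0 (0.00758% of all). Without animal 2 only SV2C in M1 against PMv was called (0.0152). Without animal 1, 3 of the 9 were still called, SV2C (0.0416), SYT6 (0.0455) and SYT17 (0.0458), all in M1 against PMv. Counting all calls, the 5 pairs gave 4 without animal 1, 57 without animal 3 and 0 without the animal block. Of these, 3, 9 and 0 were also calls of the full data. On average 0.143%, 11.8% and 0.00985% of all probe sets were called per pair in these fits.

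A moderated F test of any difference among the 4 areas called 8 of 70 member probe sets (11.4%), against 6.53% of all. They were SV2C (limma adjusted p = 0.000227), VAMP1 (0.00034), STX1A (0.0028), SYT6 (0.00289), SYT17 (0.00605), STX12 (0.0109), VAMP7 (0.0207) and SYN2 (0.0349). SV2C, VAMP1, STX12 and VAMP7 shared the order M1, PMd, PMv, A46 from high to low, and SYT6 had PMv (7.03) and PMd (7.02) level. STX1A ran A46, PMd, PMv, M1, SYN2 ran A46, PMv, PMd, M1, and SYT17 ran PMv, PMd, A46, M1. Of neighbours in these orders, M1 and PMv were called apart for SYT6, A46 and PMd for STX1A, and A46 and M1 for SYT17. The other neighbours were not called apart. Without animal 2, only SV2C was called by the F test (0.00961, with 0.489% of all probe sets called). Without animal 1 there were 5 (2.31% of all), without animal 3 there were 31 (29.4%) and without the animal block there were 2 (1.09%).

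The hemispheres were compared within 12 pairs of pieces. No member was called for left minus right (0 of 70, and 0% of all probe sets), with 3 at an unadjusted limma p under 0.05 (4.29%, against 7.66% of all). When left minus right was averaged within each animal first, 0 were called and 1 had an unadjusted p under 0.05. The lowest adjusted p, 0.455, belonged to a SYT1 probe set that averaged 11.55 on the left and 11.75 on the right and was higher on the left in 2 of 12 pairs. A test of whether the hemisphere difference varied with area called 0 members (0% of all), with 0 at an unadjusted limma p under 0.05 (4.22% of all).

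Partners of the release machinery outside these families were read from a list of 50 genes, of which 25 were tested. In M1 relative to A46, 2 were higher and 4 lower (24%, against 14.7% of all tested genes), and their median difference was -0.09, against -0.01 over all tested probe sets. CADPS2, which primes dense-core vesicles, averaged 10.12 ± 0.06 in M1 and 9.50 ± 0.20 in A46 (0.62, limma adjusted p = 0.000739). SYPL1, a relative of synaptophysin, was also higher (0.37, 0.0178). SYNPR (synaptoporin), a vesicle membrane protein of the synaptophysin family, averaged 9.82 ± 0.14 in M1 and 10.40 ± 0.11 in A46 (-0.58, adjusted p = 0.000429). The priming factor DOC2A (-0.33, 0.0105), the active zone protein RIMS3 (-0.31, 0.0106) and the liprin PPFIA4 (-0.33, 0.0181) were lower too. Only SYNPR was called without animal 2 (0.0167), where CADPS2 stood at 0.0615. Without animal 1, DOC2A (0.12) and PPFIA4 (0.0979) were lost.

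Markers of cell types also differed between M1 and A46, in both directions, and their part in the results was not tested. Of 5 tested markers of fast-spiking interneurons, 4 were higher in M1 than in A46: PVALB (1.28), SCN1A (0.87), GAD2 (0.78) and KCNC1 (0.55). The other, GAD1, was not called and averaged lower in M1 (11.10 ± 0.15) than in A46 (11.27 ± 0.07). SCN1A lost its call without the animal block (limma adjusted p = 0.0524). GAD1 and GAD2 mark GABA neurons at large. The summed intensity of that list was 3656 to 4040 in M1 and 3090 to 3577 in A46 over the 3 animals. Of the other interneuron markers, both tested were called: VIP was lower in M1 (-0.48, limma adjusted p = 0.00399) and NPY higher (0.45, 0.0418), NPY in 2 of 3 animals. Their sum was 785.5 to 1276 in M1 and 669.9 to 810.7 in A46, and without animal 2 neither was called (0.189 and 0.668), nor was NPY without animal 1 (0.144). All 3 tested markers of large projection neurons were higher, led by SPP1 (2.27) and NEFH (2.24), and their sum was 3761 to 4533 in M1 and 914.3 to 1156 in A46. All 3 tested oligodendrocyte markers were higher, with a sum of 13740 to 18140 in M1 and 5354 to 8146 in A46.

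Layer markers were mixed. Beside SYT6, 1 of 4 layer 6 markers was higher in M1, TBR1 (0.20), while FOXP2 (-0.09), NR4A2 (0.06) and CCN2 (-0.04) were not called, and the sum of the 4 was 2632 to 2788 in M1 and 2393 to 2574 in A46. Of 4 upper-layer markers, CUX2 (-0.69) and RORB (-0.60) were lower in M1, and their sum was 1361 to 1582 in M1 and 1749 to 2091 in A46. Of the markers of astrocytes, microglia and endothelial cells 1 of 4, 3 of 5 and 1 of 3 were called: S100B (0.69), ITGAM (0.26), TYROBP (0.48) and SLC2A1 (0.24) higher in M1, and CD68 (-0.41) lower. Without animal 2, GAD2 (adjusted p = 0.0686), FEZF2 (0.0578), TBR1 (0.628), RORB (0.139) and all 5 calls of these last 3 lists were lost. No marker was at 0. The 3′ minus 5′ log2 signal of actin, which rises as RNA degrades, was 0.94 in M1, 0.99 in PMd, 1.10 in PMv and 1.08 in A46, and that of GAPDH was 0.96 in M1, 0.95 in PMd, 0.92 in PMv and 0.84 in A46.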

How the data were processed

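Total RNA from 24 pieces of cortex was hybridised to one-colour Affymetrix arrays, per the labels' protocols. The authors deposited linear intensities, 1 per probe set and array, made with RMA (version not stated), per the submitters' processing notes. Here they were converted to log2. Precision is limited by having 3 animals. RMA scales arrays to each other, so a shift of all transcripts together cannot be seen.

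Gene names came from the platform annotation, and 92 of 92 member symbols matched RefSeq by Entrez ID. Control probe sets (99) were removed, and dim probe sets, whose mean log2 fell under 5.62 (the median, intensity 49.3), were not tested. A gene was represented by its brightest probe set. Left and right were averaged within each animal and area, and limma 3.58.1 (R 4.3.3) was fitted to the 12 means with area and animal as terms and an intensity trend (6 residual and 6.98 prior degrees of freedom). P-values were Benjamini-Hochberg adjusted over all 26383 tested probe sets. The animal was the block because the same 3 animals gave every area. Residual correlations of same-animal means were 0.207 to 0.85 over 18 pairs of areas (median 0.606). Left minus right used the 24 arrays with 12 pairs as blocks.

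Members, gene lists and markers were chosen with earlier results of these data known. Genes named were VAMP1 and SYT6, up to 8 called genes each way per comparison with the same sign in 3 animals, the core release genes and the brightest gene of each family. Others are named to describe their family, and RAB33A, RAB35 and single probe sets were named after their values were seen. The script was tested on simulated data. The alternatives were no block, each animal left out, no or a stricter filter (upper quartile), the 24 arrays with pairs as a random block, quantile normalization, no trend and the mean of a gene's probe sets.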

Additional observations from a re-analysis of the deposited data

How the results depend on the processing

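No called difference of a named gene changed direction in the 3 main area comparisons under any alternative, but the number of called member probe sets moved. With the animal left out as a block, M1 against A46 had 4 called (16 with it), the motor areas against A46 2 (13), M1 against premotor 0 (7), any area 2 (8) and the other 5 pairs 0 (9). Leaving out 1 animal gave 4 to 25, 1 to 24, 1 to 9, 1 to 31 and 1 to 57 in the same order, where 1.53% to 20.5%, 0.682% to 24.5%, 0.0948% to 5.19%, 0.489% to 29.4% and (mean per pair) 0.0258% to 11.8% of all probe sets were called. The lowest counts came without animal 2 and the highest without animal 3. Fitting the 24 arrays with pairs as a random block gave 16 for any area and 25 for the other pairs. Quantile normalization gave 13 and 19, and moved no array median by more than 0.065. The filters, the intensity trend and these 2 settings left the counts of the 3 main comparisons within 1.5 times: 14 to 21, 11 to 16 and 5 to 8. For these settings the share of all probe sets called is not given beside the counts. Whether the changes in these counts are particular to the members therefore cannot be told from them. Without a filter on low intensity, STX3 (adjusted p = 0.0754) and SYT17 (0.0534) in M1 against A46 and STX12 (0.052) in M1 against premotor lost their calls. Without the trend, RAB33A (motor areas against A46, 0.0502) and SYN2 (M1 against premotor, 0.0547) did. The causes were not tested. Each fit that leaves out an animal also has fewer samples. Left minus right gave 0 under both fits. Of differences called neither in the full data nor in the alternative, 18 changed sign, to sizes of at most 0.071. Leaving out 1 animal gave these ranges of the log2 difference. In M1 against A46 they were -0.140 to 0.0268 for CPLX2, -0.0399 to 0.0373 for RAB3A and -0.0938 to 0.0122 for SV2A. In the motor areas against A46 they were -0.0219 to 0.0300 for RAB3A and -0.0710 to 0.0980 for SYT17. In M1 against premotor they were -0.0271 to 0.0405 for RAB3A, -0.0321 to 0.0408 for SNAP47, -0.0164 to 0.0689 for SV2A and -0.0120 to 0.110 for VAMP2. Quantile normalization gave -0.00834 for RAB3A in M1 against A46 and 0.00417 for SV2B in the motor areas against A46. In M1 against premotor it gave -0.00851 for CPLX2, -0.0427 for RAB3A, -0.0345 for SNAP47 and -0.0232 for SV2A, and averaging probe sets gave 0.00584 for SYT1.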

Other observations

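Over the 70 tested member probe sets, the median share of variation between the 12 animal-by-area means was 29.8% for area, 33.0% for animal and 28.8% for the rest. Over all 26383 tested probe sets it was 25.9%, 29.4% and 32.9%. Single members lay far apart on this scale. Area held 86.9% of the variation of SV2C, 86.0% of STX12, 80.9% of VAMP1 and 76.3% of SYT6. Animal held 68.9% of the variation of CPLX2 and 68.0% of VAMP2, where area held 6.74% and 18.6%.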
